A study of Mus musculus with 15 samples.

Results

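The semaphorins Sema3b, Sema3c and Sema7a, the plexins Plxna1, Plxna2, Plxnb1, Plxnb2, Plxnc1 and Plxnd1 and the neuropilin Nrp1 were followed through 15 RNA-sequencing libraries of CT26 cells, a mouse colon tumor line. These 10 genes, of 34432 genes in each count table, were chosen by name with earlier results of the same libraries in view. Their differences from control libraries are therefore described here with no p-value. The number of them called in the fit of all genes is given only as a description, for the main fit and later for its alternatives. All 10 had a row in both tables. They make up 3 of the 20 mouse semaphorins, 6 of the 9 plexins and 1 of the 2 neuropilins, and the other 21 genes of the 3 families were tested beside them.

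Semaphorins are secreted, membrane-spanning or lipid-anchored proteins that were first known as repulsive cues for growing axons. Most of them bind plexins, single-pass receptors whose intracellular part acts on small GTPases of the Rap and R-Ras kind, so that integrin adhesion and the actin skeleton are remodelled. Secreted class 3 semaphorins mostly need a neuropilin as co-receptor, and neuropilins also bind growth factors of the VEGF family. In tumors these proteins are known for their roles in cell migration, vessel growth and contact with immune cells.

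The paper says only in general that its quantitative data rest on biological replicates or independent experiments. The 2 experiments here had 3 libraries per group. In the first, cells with a control hairpin (shControl) were compared with cells stably carrying a doxycycline-inducible hairpin against Prmt1 (shPrmt1), the gene of the main type I protein arginine methyltransferase, after 3 days of doxycycline; the labels do not say whether shControl cells received doxycycline. In the second, unmodified CT26 cells received vehicle, MS023 or GSK3368715, both inhibitors of type I arginine methyltransferases, at 6 µM for 48 h. The tables of the 2 experiments were normalized separately, so levels are compared only within an experiment.

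Reads on genes ran from 17284091 to 29233738 per library in the knockdown experiment and from 40119305 to 93697833 in the inhibitor experiment. Values are normalized counts, that is, reads per gene divided by a size factor of the library, given as mean ± SD (n = 3). Prmt1 itself was at 5601, 5717 and 5620 normalized counts in shControl and at 669, 761 and 683 in shPrmt1, so the knockdown groups matched their labels. With MS023 and GSK3368715 Prmt1 overlapped vehicle (log2 fold change -0.07 and -0.01), so it does not check the labels of the inhibitor groups. Of 10 colon epithelium markers, Krt18 and Krt20 reached at least 10 normalized counts in every library, whereas Epcam was at 0 in all 15 libraries and Cdh1 at no more than 2.29. Vim, a mesenchymal marker, was at 58943 or more in every library. Of 6 leukocyte markers only Cd68 reached 10 in every library, with Ptprc at 6.11 or less throughout, and of 4 endothelial markers only Pecam1 reached it, in 4 of the 5 groups. The summed epithelial markers ran from 1287 to 1449 in vehicle, 1790 to 1880 with MS023 and 1451 to 1617 with GSK3368715, and from 729 to 812 in shControl and 544 to 670 in shPrmt1, so that they were higher with the inhibitors and lower with knockdown. Most of this was Krt18, with means of 941, 1372 and 1137 in the inhibitor experiment and 572 and 431 in the knockdown experiment, whereas Krt20 overlapped its controls throughout. The summed mesenchymal markers were lower with MS023, at 364990 to 410800, than in vehicle, at 412940 to 437980. Their sums overlapped the controls with GSK3368715 and with knockdown. Col1a2 (means 121880 in vehicle and 104660 with MS023) and Col1a1 (18543 and 13071) were lower with MS023 without overlap. Vim, Fn1 and Cdh2 overlapped vehicle with MS023, and Dcn (23.5 and 35.1) was higher without overlap. Most of the mesenchymal sum was Vim and Col1a2, which overlapped shControl in shPrmt1. Col1a1 (means 2116 and 4207), Fn1 (11030 and 13829) and Cdh2 (3504 and 3986) were higher in shPrmt1 than in shControl without overlap. Thy1 was at 0 in all 15 libraries, and Dcn at no more than 2.29 in the knockdown experiment. The summed neural markers were higher in shPrmt1 (142 to 153) than in shControl (126 to 137). Nearly all of this was Tubb3, with means of 146 and 132, while Rbfox3, Map2, Gfap and Sox10 were at no more than 1.76 there. The part of these shifts in the results on semaphorins and plexins was not tested. In such bulk samples fewer cells of a type and less RNA per cell cannot be told apart.

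The promoter of Plxnc1 is shown because Plxnc1 had the widest difference among the members. The 250 bases upstream of its RefSeq start (GRCm38.p6, minus strand, chr10:94944846-94945095) are printed with capitals at the match to GAAANNGAAA, the core of the element that interferon regulatory factors bind:
Plxnc1: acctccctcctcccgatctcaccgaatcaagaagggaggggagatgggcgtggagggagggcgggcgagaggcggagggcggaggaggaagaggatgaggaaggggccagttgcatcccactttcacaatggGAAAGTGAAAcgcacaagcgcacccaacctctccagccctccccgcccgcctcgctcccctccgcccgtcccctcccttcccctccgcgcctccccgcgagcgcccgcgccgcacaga
The match lay 118 to 109 bases before the start. The motif was searched on both strands, and was chosen after the Plxnc1 promoter had been read. It occurred in 978 of 32851 mouse promoters of the same length, or 2.98%. Of the 26 family genes with a promoter in the RefSeq table, which together had 37 promoters, only Sema6b also held it; 20 bases on either side of the match are shown for both genes, with the match in capitals:
Plxnc1: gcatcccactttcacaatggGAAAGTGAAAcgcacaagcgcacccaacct
Sema6b: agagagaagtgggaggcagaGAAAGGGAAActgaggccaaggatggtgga
The Sema6b window (minus strand) was chr17:56140460-56140509 and that of Plxnc1 chr10:94944934-94944983. The mean of Sema6b was 1779 normalized counts in vehicle, 1629 with MS023 and 1574 with GSK3368715. TTCNNNGAA, the STAT site, was in none of the 37 promoters against 7.02% of all, and GGGCGG, the GC box, was in 27 of them against 32.7% of all; CACGTG, the E-box, was in 2 of them, none of a member, against 6.02% of all. GAAANNGAAA and TTCNNNGAA share the letters GAA and can overlap. These matches describe letters in a window and were not tested as binding sites or for a part in any change.

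Levels were first set beside each other per kilobase of exon, since a long transcript collects more reads. Plxnb2, a receptor for class 4 semaphorins, was the highest of the 31 family genes in all 5 groups, at 1200 ± 88.7 normalized counts per kb in shControl and 3640 ± 100.5 in vehicle. Sema3a, Nrp2 and Plxna1 followed in this order in every group, and the libraries of neighbours among these 4 did not overlap in shControl or vehicle. Plxnd1 stood at 94.8 ± 20.6 per kb in shControl and 359 ± 30.8 in vehicle, where it overlapped Sema4b. Plxna3, Plxna2 and Nrp1 lay close together, and in vehicle each overlapped its neighbour, with Plxna2 at 144 ± 20.7 and Nrp1 at 111 ± 20.9 per kb. Sema3b, Plxnb1, Sema7a and Plxnc1 were low in vehicle, at 23.6 ± 8.56, 4.98 ± 3.78, 4.53 ± 0.734 and 1.48 ± 0.41 per kb. MS023 brought Sema3b to 101 ± 17.0 per kb, close to Plxna2 at 108 ± 10.1, and Plxnc1 to 10.5 ± 5.83.

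**Figure D1:**
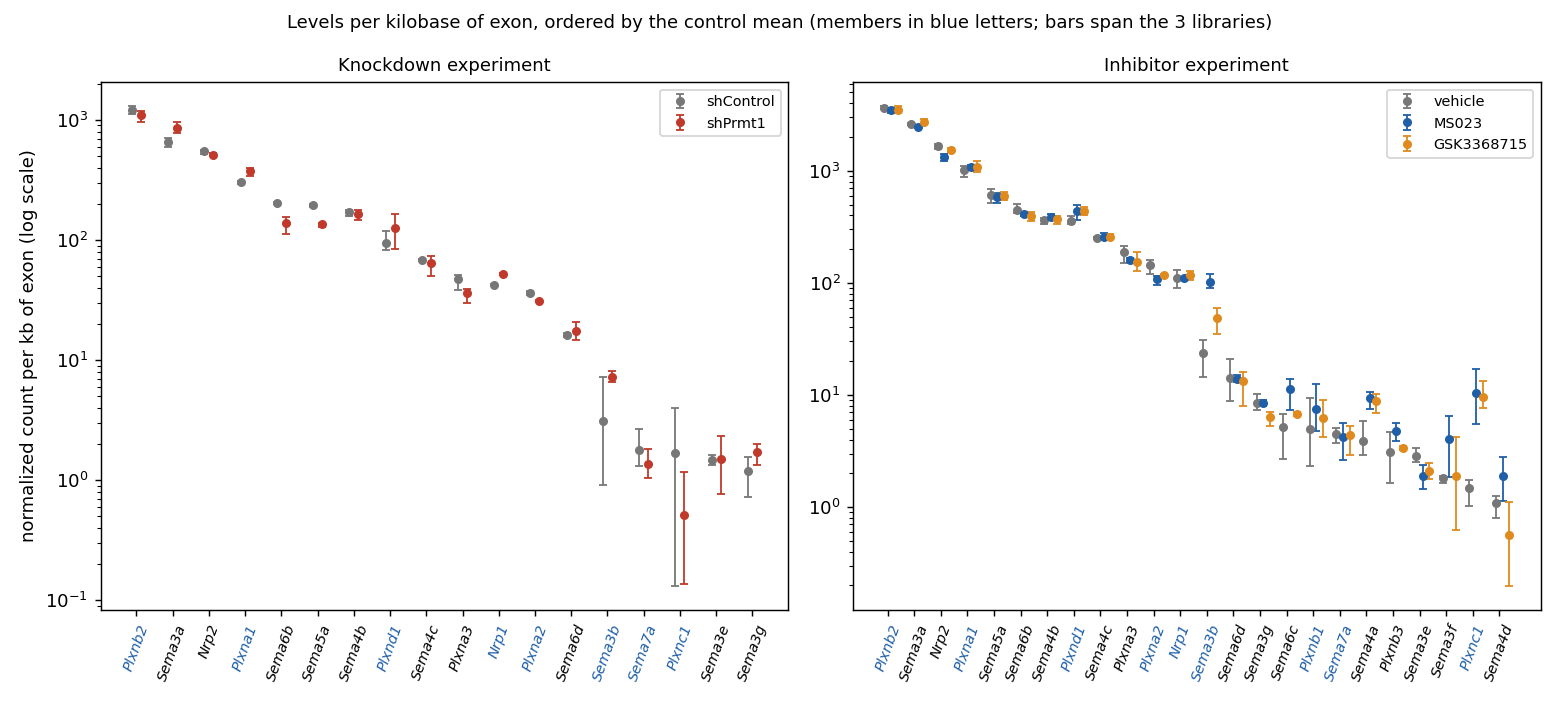
Normalized counts per kilobase of exon on a log axis for the family genes with a control mean of at least 1, ordered by that mean, in the knockdown experiment (left) and the inhibitor experiment (right); points are means, bars span the 3 libraries, and blue letters mark the 10 chosen genes. Plxnb2 leads both panels, and Sema3b and Plxnc1 stand above their vehicle values with either inhibitor.

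Among the ligands, Sema3b, a secreted semaphorin regarded as a candidate tumor suppressor (chr9:107597674-107609229, mm10, minus strand), was higher with both inhibitors. Vehicle libraries had 149, 68.5 and 121 normalized counts of Sema3b, MS023 libraries 430, 445 and 577, and GSK3368715 libraries 240, 283 and 168. Neither inhibitor group overlapped vehicle, and every MS023 library lay above every GSK3368715 library. The mean with MS023 was 4.29 times that of vehicle (log2 fold change 2.15, SE 0.27), and with GSK3368715 it was 2.04 times (1.06, SE 0.27). Leaving out any of the 9 libraries kept the log2 fold change between 1.83 and 2.39 with MS023 and between 0.74 and 1.30 with GSK3368715.

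In the knockdown experiment Sema3b was scarce, at 4.40, 5.76 and 34.3 normalized counts in shControl and 33.2, 31.5 and 38.8 in shPrmt1. These were 5, 8 and 31 reads against 29, 26 and 38 reads. The groups overlapped, because the third shControl library lay among the shPrmt1 libraries while the first and second were far below them. Only the third shControl library reached 10 normalized counts, so Sema3b passed the filter on low values through the shPrmt1 libraries. The log2 fold change was 1.70 (SE 0.64, 95% interval 0.24 to 3.16), and without the third shControl library it was 2.55.

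Sema7a, a lipid-anchored semaphorin and the known ligand of plexin C1 (chr9:57940112-57962865), had no separation of groups like that of Plxnc1. Vehicle libraries had 12.2, 15.7 and 16.9 normalized counts, MS023 libraries 8.75, 14.2 and 18.4, and GSK3368715 libraries 17.5, 9.67 and 16.4. All 3 groups overlapped, and the 95% interval of the log2 fold change ran from -0.99 to 0.68 with MS023 and from -0.90 to 0.77 with GSK3368715. In the knockdown experiment Sema7a had 31 reads over 6 libraries and did not pass the filter on low values.

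Sema3c, a secreted semaphorin that acts through neuropilins (chr5:17574281-17730268), was at 0 in 14 of 15 libraries. A single read was found, in the second vehicle library. Over the 9 inhibitor libraries this was 1 read of 552887631, and in the 6 knockdown libraries it was 0 of 127919509, which allows up to 3 reads by counting error alone.

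Among the receptors, Plxnc1, which encodes the receptor of Sema7a (chr10:94790866-94944835, minus strand), was higher with both inhibitors than in vehicle. Vehicle libraries had 14.7, 14.0 and 8.44 normalized counts of Plxnc1, MS023 libraries 46.2, 141 and 74.6, and GSK3368715 libraries 67.1, 63.4 and 112. No inhibitor library came down to a vehicle library, while the inhibitor groups lay across each other. The third vehicle library lay under 10 normalized counts. Plxnc1 thus passed the filter (10 normalized counts in 3 libraries) only with the inhibitor libraries, where it was high. The means were 7.05 times vehicle with MS023 (log2 fold change 2.61, SE 0.39) and 6.52 times with GSK3368715 (2.60, SE 0.39). These values rested on 36 reads in vehicle, 280 with MS023 and 222 with GSK3368715, and left-out libraries moved the log2 fold changes between 2.19 and 2.99 and between 2.34 and 2.75. GENCODE places a predicted gene, Gm48718, on the same strand over 115 of the 8349 exon bases of Plxnc1, and it has no row of its own in the tables.

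In the knockdown experiment Plxnc1 was scarce and uneven. The shControl libraries had 33.5, 7.92 and 1.11 normalized counts and the shPrmt1 libraries 1.14, 9.70 and 2.04. A single shControl library, with 38 of the 61 reads in this experiment, was above all others. The gene did not pass the filter there, so the knockdown effect cannot be set against that of the inhibitors at this depth.

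**Figure D2:**
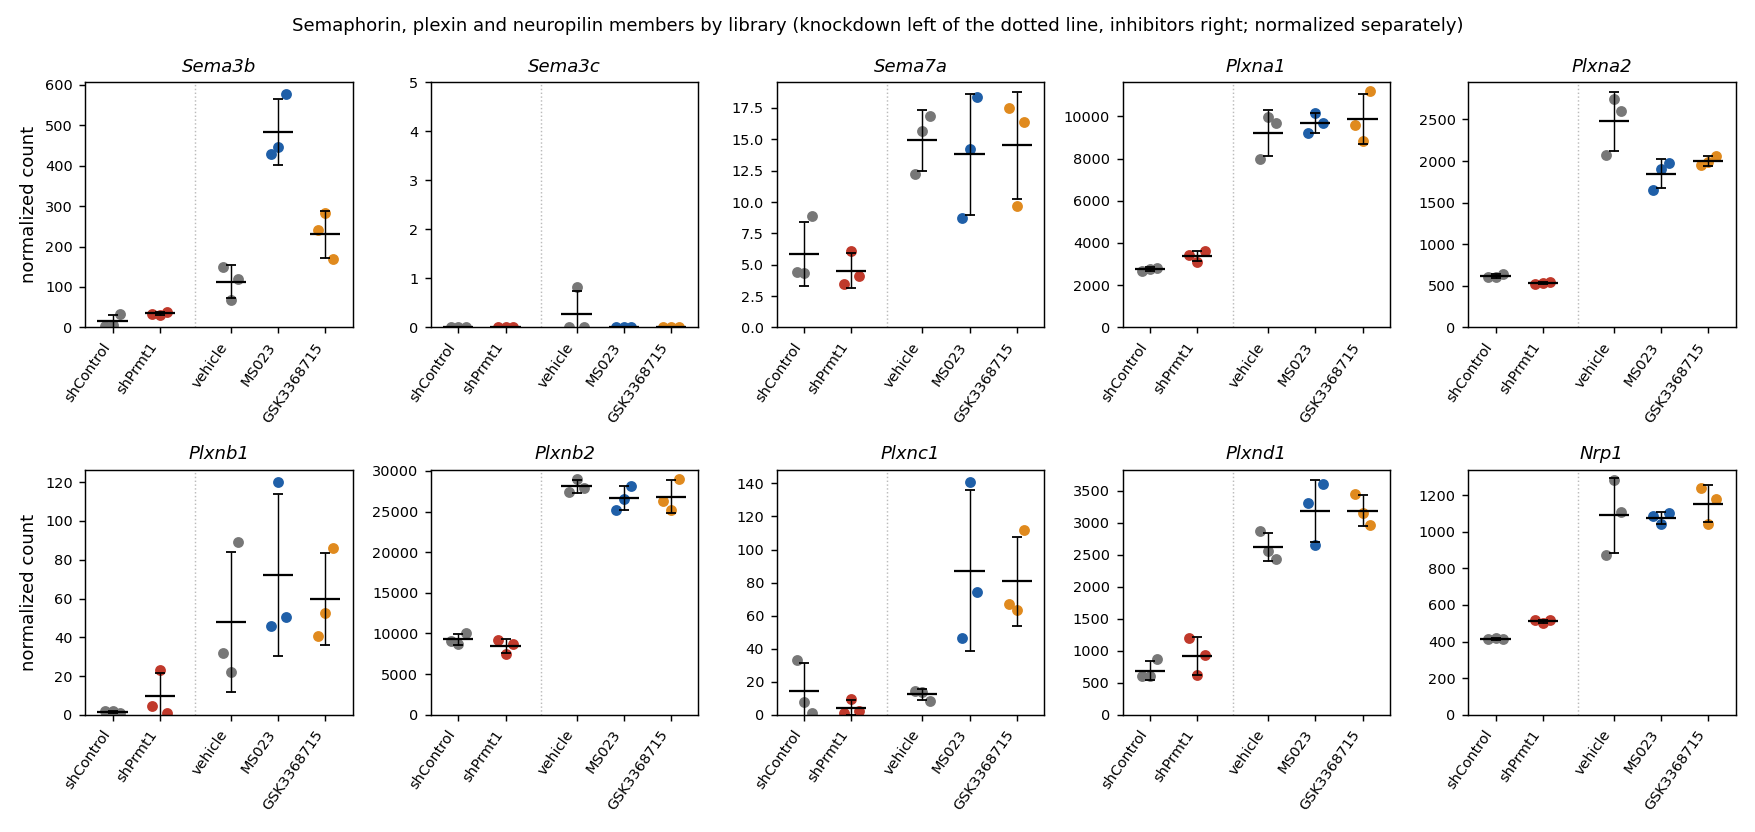
Normalized counts of the 10 chosen genes in each library (points), with the group mean (line) and SD (bar, not drawn below 0), on linear axes from 0; shControl and shPrmt1 stand left of the dotted line and vehicle, MS023 and GSK3368715 right of it. Plxnc1 and Sema3b separate from vehicle with both inhibitors, whereas Sema7a, Plxnb1, Plxnb2 and Nrp1 overlap vehicle.

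The class A plexins are the partners of neuropilins in class 3 semaphorin receptors. Plxna1 (chr6:89316314-89362620, minus strand) was at 2677, 2780 and 2836 normalized counts in shControl and 3424, 3114 and 3604 in shPrmt1. The shPrmt1 libraries were all higher, by a log2 fold change of 0.29 (SE 0.07). With the inhibitors Plxna1 overlapped vehicle, which ran from 7979 to 9972, and the log2 fold changes were 0.08 (95% interval -0.14 to 0.30) with MS023 and 0.10 (-0.12 to 0.32) with GSK3368715. The antisense gene Gm26811, which has no row in the tables, covers 970 of the 9054 exon bases of Plxna1, and no source used here states whether counting used strand.

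Plxna2 (chr1:194618218-194816869) was lower in all treated groups than in their controls. Its libraries had 602, 612 and 642 normalized counts in shControl and 521, 538 and 548 in shPrmt1, a log2 fold change of -0.21 (SE 0.07). In the inhibitor experiment vehicle had 2074, 2748 and 2606, MS023 1651, 1908 and 1982 and GSK3368715 1951, 1987 and 2064. Neither inhibitor group overlapped vehicle, although the highest GSK3368715 library came within 10 normalized counts of the lowest vehicle library. The mean fell to 74.6% of vehicle with MS023 (log2 fold change -0.42, SE 0.10) and to 80.8% with GSK3368715 (-0.30, SE 0.10).

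The ratio of Plxna1 to Plxna2 per kilobase within a library does not depend on the scaling between libraries. It was 8.43, 8.62 and 8.37 in shControl and 12.5, 11.0 and 12.5 in shPrmt1. It was 7.30, 6.88 and 7.06 in vehicle, 10.6, 10.1 and 9.28 with MS023 and 9.30, 8.45 and 10.3 with GSK3368715. Every treated library lay above every control library of its experiment, which shows unequal change of the paralogs and not which of them changed.

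The class B plexins bind class 4 semaphorins. Plxnb2 (chr15:89155549-89180788, minus strand) had 9058, 8712 and 10032 normalized counts in shControl and 9205, 7461 and 8736 in shPrmt1. It had 27445, 28958 and 27902 in vehicle, 25246, 26587 and 28167 with MS023 and 26252, 25226 and 29059 with GSK3368715. All of these groups overlapped their controls, and the log2 fold changes were -0.13 (95% interval -0.34 to 0.07), -0.08 (-0.22 to 0.06) and -0.07 (-0.21 to 0.07). Plxnb1 (chr9:109095389-109119917) was far lower and uneven, at 31.8, 22.3 and 89.2 in vehicle, 45.6, 120 and 50.4 with MS023 and 40.4, 52.6 and 86.3 with GSK3368715, again with overlapping groups. In the knockdown experiment it had 30 reads in all, 19 of them in the second shPrmt1 library.

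Plxnd1, a receptor that Sema3e can bind without a neuropilin (chr6:115954811-115995005, minus strand), had higher means in all treated groups, but its libraries varied. It had 602, 609 and 866 normalized counts in shControl and 1208, 621 and 942 in shPrmt1, with overlap and a log2 fold change of 0.38 (SE 0.24) that became 0.64 without the second shPrmt1 library and 0.16 without the first. Vehicle libraries had 2871, 2566 and 2433, MS023 libraries 3308, 2655 and 3604 and GSK3368715 libraries 3448, 3152 and 2971. GSK3368715 did not overlap vehicle (log2 fold change 0.28, SE 0.11), whereas the second MS023 library lay inside the vehicle range (0.27, SE 0.11).

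Nrp1, the co-receptor of Sema3a and of VEGF-A (chr8:128358604-128503363), was higher in shPrmt1 than in shControl and overlapped vehicle with both inhibitors. The shControl libraries had 414, 421 and 411 normalized counts and the shPrmt1 libraries 517, 502 and 515, without overlap and at 123% of the control mean (log2 fold change 0.30, SE 0.08). Vehicle libraries had 875, 1283 and 1108, MS023 libraries 1083, 1040 and 1102 and GSK3368715 libraries 1238, 1041 and 1178, all overlapping. The 95% intervals of the inhibitor changes ran from -0.27 to 0.27 with MS023 and from -0.18 to 0.37 with GSK3368715. The first vehicle library was the lowest of its group for Nrp1, Plxna1 and Plxna2. Per kilobase, Nrp1 was 0.0751, 0.0820 and 0.0754 of Nrp2 in shControl and 0.101, 0.103 and 0.0995 in shPrmt1. The ratio was 0.0575, 0.0756 and 0.0651 in vehicle, 0.0907, 0.0771 and 0.0804 with MS023 and 0.0860, 0.0718 and 0.0750 with GSK3368715. Nrp2 was thus the more abundant neuropilin in all 15 libraries, and the ratio lay above control without overlap in shPrmt1 and with MS023 and overlapped vehicle with GSK3368715.

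Read as counts, the members were called as follows, where called means a limma adjusted p under 0.05 over all genes tested; since the members were chosen with these contrasts known, nothing is read from their shares. With knockdown, 2 of 6 tested members were called, both higher (Plxna1 and Nrp1), beside 14.7% of 11485 tested genes called in either direction, 7.5% higher and 7.17% lower. Either call was lost when any shControl library, or the first or the third shPrmt1 library, was left out. With MS023, 3 of 9 were called, Plxnc1 and Sema3b higher and Plxna2 lower, beside 27.9% of 13014 genes, 13.7% higher and 14.1% lower. The call of Plxna2 was lost without the third vehicle or the first MS023 library. With GSK3368715, 2 of 9 were called, Plxnc1 and Sema3b, beside 9.64% of genes, 5.16% higher and 4.47% lower, and the call of Sema3b was lost without the second or the third vehicle, the first or second MS023 or the first or second GSK3368715 library. Groups without overlap were found for 3, 3 and 4 members, beside 38% of genes with knockdown, 44.5% with MS023 and 27.7% with GSK3368715.

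**Figure D3:**
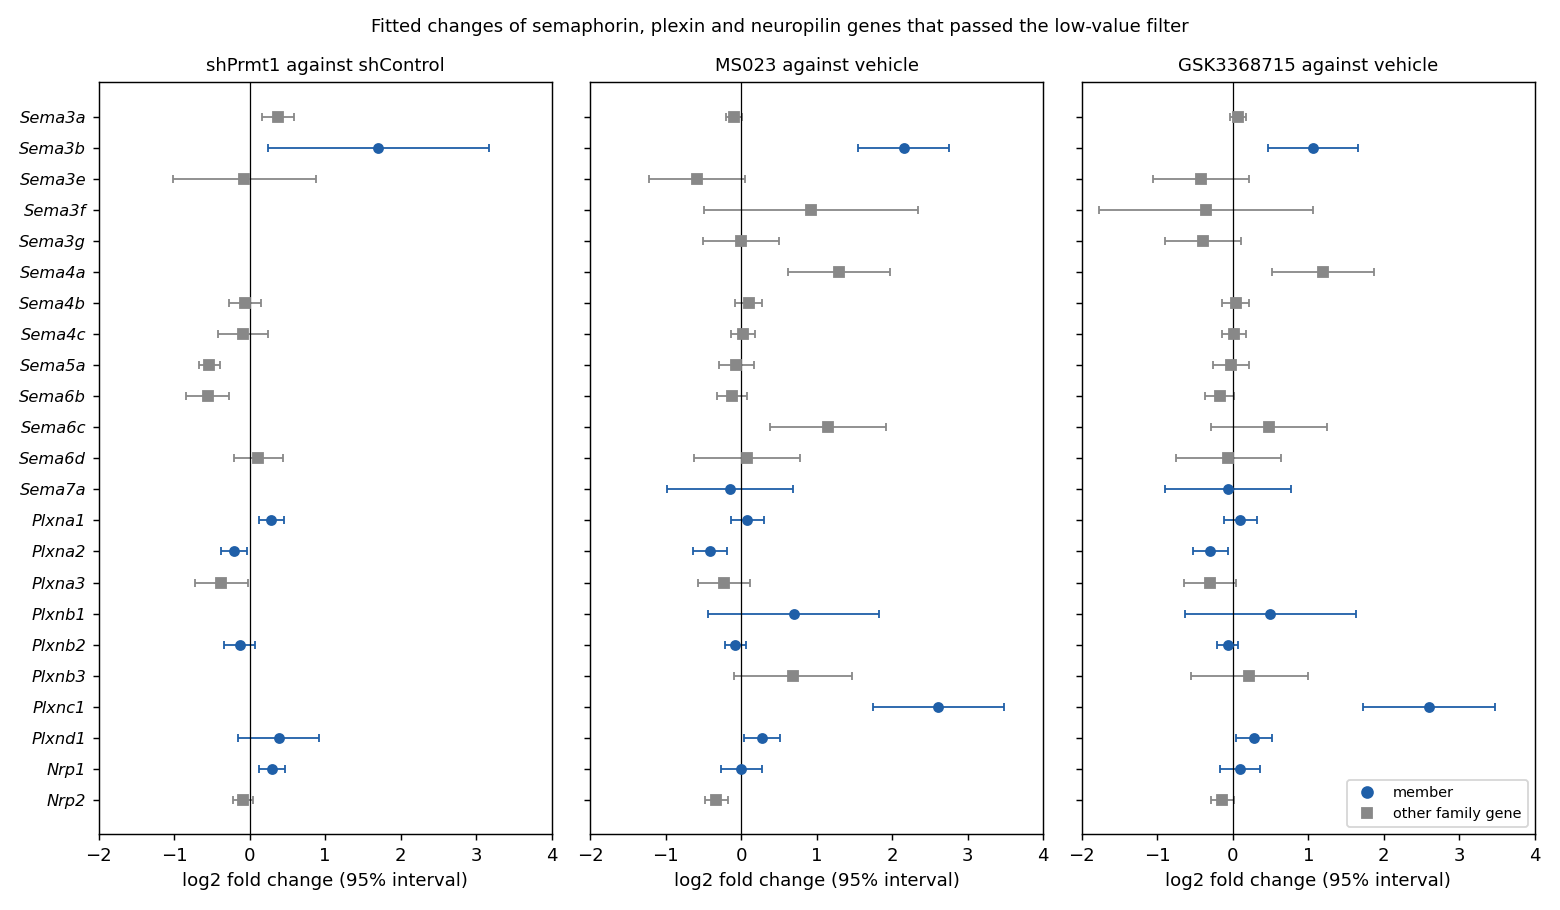
Log2 fold changes with 95% intervals for the 23 semaphorin, plexin and neuropilin genes that passed the filter on low values, in shPrmt1 against shControl, MS023 against vehicle and GSK3368715 against vehicle; blue circles are the chosen genes and grey squares the other family genes, and a gene with no point was not tested in that comparison. The inhibitor panels share the vehicle libraries. Plxnc1 at 2.61 and 2.60 stands farthest from 0 in the inhibitor panels, where Sema3b lies at 2.15 and 1.06 and Sema4a at 1.30 and 1.20, while Sema5a and Sema6b lie below 0 with knockdown.

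The remaining family genes were not among those chosen, and their tests against control follow. Among 21 genes, 9 passed the filter in the knockdown experiment, and 1 rose and 2 fell, or 33.3% of those tested beside 14.7% of all genes, with a median log2 fold change of -0.09 beside a value near 0 over all genes. Sema5a, a membrane semaphorin with thrombospondin repeats, fell from 3670, 3742 and 3544 normalized counts in shControl to 2387, 2604 and 2576 in shPrmt1 (log2 fold change -0.53, SE 0.06, limma adjusted p = 0.00125), and stayed called whichever single library was left out. Sema6b, a membrane semaphorin, fell from 816, 793 and 818 to 613, 446 and 605 (-0.56, SE 0.12, limma adjusted p = 0.0208), but the adjusted p was 0.0821, 0.0626 and 0.0786 without the first, second or the third shControl library. Sema3a, the classical secreted ligand of Nrp1, rose from 9373, 9738 and 8197 to 10872, 13220 and 11274 (0.37, SE 0.09, limma adjusted p = 0.032). This call was lost when any shControl library or the third shPrmt1 library was left out, at adjusted p-values up to 0.121.

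In the inhibitor experiment 14 of these 21 genes passed the filter. With MS023 2 rose and 1 fell, or 21.4% beside 27.9% of all genes, and with GSK3368715 1 rose, or 7.14% beside 9.64%, so neither share was above that over all genes. They had a median log2 fold change of 0.01 with MS023 and -0.04 with GSK3368715, beside values near 0 over all genes. Sema4a, a membrane semaphorin known from T-cell and macrophage biology, rose with both compounds, from 31.8, 15.7 and 15.7 normalized counts in vehicle to 40.6, 56.9 and 55.2 with MS023 (log2 fold change 1.30, SE 0.31, limma adjusted p = 0.0103) and to 37.4, 54.8 and 50.6 with GSK3368715 (1.20, SE 0.31, limma adjusted p = 0.0351). The GSK3368715 call was lost in 6 of 9 fits that left out a library, namely without the second or the third library of vehicle, MS023 or GSK3368715, at adjusted p-values up to 0.113. Sema6c, another membrane semaphorin, rose with MS023 from 15.9, 36.3 and 39.8 to 43.7, 82.0 and 73.6 (1.14, SE 0.35, limma adjusted p = 0.0322). That call was lost in 6 of 19 alternatives, among them without the first vehicle library (log2 fold change 0.74, limma adjusted p 0.0752) or the second or the third MS023 library. Nrp2, which favours Sema3f and VEGF-C, fell with MS023 from 18409, 20539 and 20590 to 14455, 16332 and 16602 (-0.33, SE 0.07, limma adjusted p = 0.00563). Other family genes that passed the filter without a call in any comparison with control were Sema3e, Sema3f, Sema3g, Sema4b, Sema4c, Sema6d, Plxna3 and Plxnb3. Of the remainder, Sema5b had no read in any of the 15 libraries and Sema6a had 2 reads, both in the inhibitor experiment.

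MS023 and GSK3368715, given at the same dose for the same time, were compared directly in a single pair. None of the 9 tested members was called in this difference by limma, beside 0.515% of 13014 genes; 1 had an unadjusted p under 0.05, DESeq2 called 1, and edgeR called 0. That member was Sema3b, which had a log2 difference, GSK3368715 minus MS023, of -1.09 (95% interval -1.69 to -0.49, limma adjusted p = 0.127), or at 47.6% of the MS023 mean. This difference was called in 3 of 20 alternatives. The adjusted p was 0.00235 by DESeq2, and by limma 0.0382 when only the compared groups were fitted and 0.0353 without the second vehicle library. In the others it was not called, with a limma adjusted p of 0.212 with the replicate block, 0.216 with no trend and 0.349 without the third MS023 library. Sema3b was also the only member of the 9 tested whose inhibitor groups did not overlap, beside 21.4% of genes tested. For Plxnc1 the difference was -0.01 with an interval from -0.88 to 0.86, and for Plxna2 it was 0.12 (-0.11 to 0.35), so neither a difference nor its absence was shown within these intervals. The members' values in this contrast share the inhibitor libraries with those by which they were chosen.

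The knockdown effect was set against each inhibitor's effect in a fit of all 15 libraries. For the 6 members measured in both experiments no difference was called, beside 7.63% of 11471 genes against MS023 and 4.11% against GSK3368715, and none had an unadjusted p under 0.05 in limma. DESeq2 and edgeR called 0 of them as well. The intervals were wide for Sema3b (-1.98 to 1.08 against MS023 and -0.89 to 2.17 against GSK3368715) and narrower for Nrp1 (-0.03 to 0.63 and -0.12 to 0.53). Without the third shControl library the Sema3b difference from MS023 went from -0.45 to 0.40, with no call in either. Without the first vehicle library the Nrp1 difference from MS023 was 0.45 and was called. Of the other 9 family genes tested, 2 were called against MS023 and 1 against GSK3368715. Sema5a was lower with knockdown than with MS023 by a log2 difference of -0.47 (SE 0.13, limma adjusted p = 0.0454) and than with GSK3368715 by -0.51 (SE 0.13, limma adjusted p = 0.047), and Sema3a was higher with knockdown than with MS023 by 0.47 (SE 0.11, limma adjusted p = 0.0145). Each Sema5a call was lost in 14 of 25 alternatives, among them leaving out any shControl library, and the Sema3a call in 1 of 25.

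Genes that act with or downstream of these receptors were taken from lists of 36 signalling genes, 13 co-receptors and neuropilin ligands and 7 proteases. Of 45 tested with knockdown, 3 rose and 3 fell, and the median log2 fold change was 0.05. With MS023 7 rose and 10 fell of 47, and with GSK3368715 3 rose and 2 fell. The shares called were 13.3%, 36.2% and 10.6%, beside 14.7%, 27.9% and 9.64% of all genes, so those with knockdown and GSK3368715 were near the share over all genes. The medians with the inhibitors, like those over all genes tested, were near 0. The lists were drawn up with earlier results of these libraries known, so the adjusted p-values below describe listed genes and are no independent support. Genes are named for the largest called changes, up to 3 per direction and contrast.

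Flt1, a VEGF receptor whose ligands VEGF-A and VEGF-B also bind Nrp1, fell in each comparison. It went from 107, 82.1 and 107 normalized counts in shControl to 48.01, 47.3 and 57.2 in shPrmt1 (log2 fold change -0.94, SE 0.18, limma adjusted p = 0.0105). From 243, 285 and 241 in vehicle it went to 114, 114 and 99.8 with MS023 (-1.22, SE 0.12, limma adjusted p = 0.000117) and to 146, 157 and 140 with GSK3368715 (-0.79, SE 0.12, limma adjusted p = 0.00432). The inhibitor calls were kept whichever single library was left out, and the knockdown call was lost without the first (adjusted p 0.0583) or the third (0.0541) shControl library. Of the endothelial markers, Pecam1 lay between 2.42 and 37.4 normalized counts in these libraries, and Cdh5, Tek and Kdr at no more than 3.67. Their sum was 11.5 to 12.3 in shControl and 2.42 to 8.002 in shPrmt1, and both inhibitor groups overlapped vehicle; its part in the Flt1 result was not tested.

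Ligands of the VEGF family moved apart with knockdown. Vegfb fell from 821 ± 29.2 to 510 ± 73.3 normalized counts (log2 fold change -0.70, limma adjusted p = 0.00531) and Vegfa from 3296 ± 91.7 to 2510 ± 256.8 (-0.40, limma adjusted p = 0.0149). Vegfb was also called lower with MS023, and with GSK3368715 it lay below vehicle without overlap but was not called. Vegfd rose with knockdown from 57.4 ± 11.0 to 103 ± 14.8 (0.84, limma adjusted p = 0.0229), and with MS023 from 228 ± 26.5 to 303 ± 21.9 (0.41, limma adjusted p = 0.0247). The Vegfa call was lost without the first or the third shControl library (adjusted p up to 0.0726), and each Vegfd call when any of 4 libraries was left out: with knockdown the first or second of shControl and the first or the third of shPrmt1 (up to 0.0929), and with MS023 the first or the third of either group (up to 0.0894).

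Rnd GTPases bind the intracellular part of plexins. Rnd3 rose with knockdown from 625 ± 22.9 to 986 ± 166.8 normalized counts (log2 fold change 0.65, limma adjusted p = 0.00896) and with GSK3368715 from 3650 ± 374.9 to 4478 ± 375.4 (0.30, limma adjusted p = 0.0447), the latter a call lost in 8 of 9 fits that left out a library (adjusted p up to 0.125) and kept without the first vehicle library. Rnd1 fell with MS023 from 2209 ± 92.1 to 1600 ± 74.0 (-0.46, limma adjusted p = 0.000563) and with GSK3368715 to 1831 ± 84.7 (-0.27, limma adjusted p = 0.0237), the latter lost without the second or the third library of vehicle or of GSK3368715 (up to 0.072). Rnd2 rose with MS023 from 336 ± 13.9 to 459 ± 29.9 (0.45, limma adjusted p = 0.00402). The antisense neighbour Vat1 shares 226 exon bases with Rnd2 and had a log2 fold change of 0.35 with MS023.

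Other named signalling genes were changed in single experiments or with both compounds. Mical3, of a family of enzymes that oxidise actin, rose from 1708 ± 70.8 normalized counts in vehicle to 2312 ± 101.0 with MS023 (log2 fold change 0.44, limma adjusted p = 0.000685) and 2180 ± 94.8 with GSK3368715 (0.35, limma adjusted p = 0.00693). Ptk7, a receptor-like pseudokinase, rose with GSK3368715 from 2073 ± 90.9 to 2525 ± 81.5 (0.29, limma adjusted p = 0.0142; 0.0594 without the third vehicle library). Ptk7 was also called higher with MS023, without overlap of vehicle. Dpysl3, of the collapsin response mediator family that relays Sema3a signals, fell with MS023 from 19063 ± 2430 to 13137 ± 1249 (-0.53, limma adjusted p = 0.00504). Fyn, a kinase that phosphorylates plexin A and collapsin response mediators, rose with knockdown from 202 ± 7.96 to 281 ± 27.2 (0.47, limma adjusted p = 0.0236), a call lost when any shControl library or the first shPrmt1 library was left out (adjusted p up to 0.0937).

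**Figure D4:**
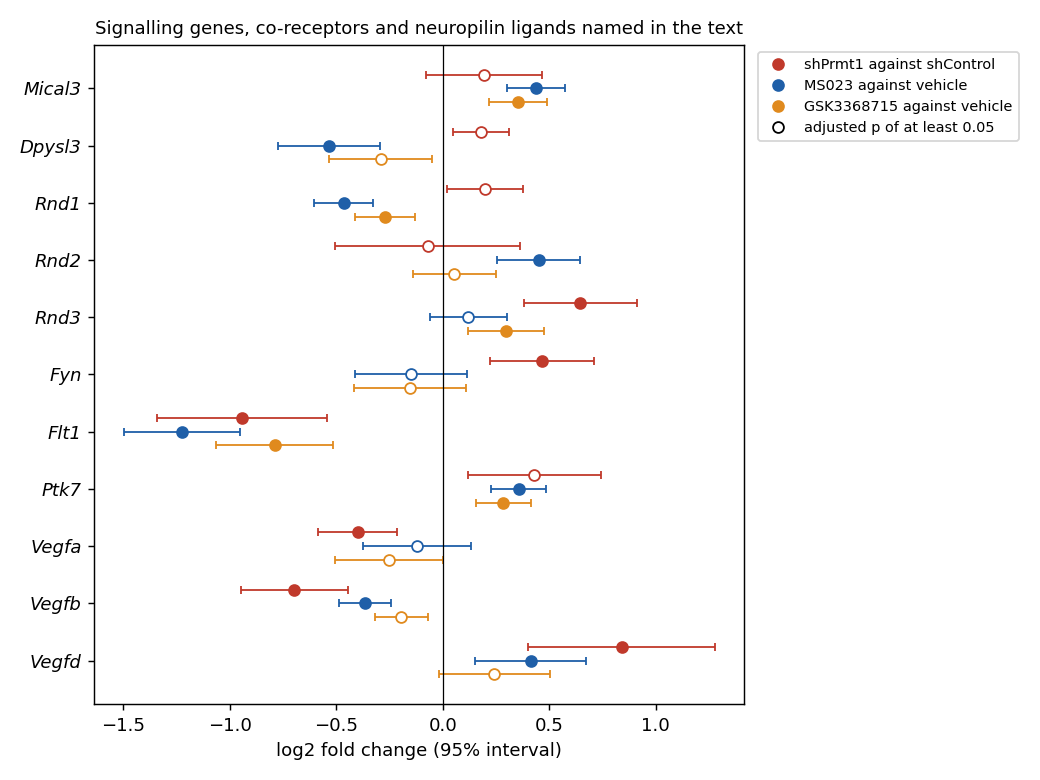
Log2 fold changes with 95% intervals of the 11 named signalling genes, co-receptors and neuropilin ligands in the 3 comparisons with control; filled points had a limma adjusted p under 0.05 and open points did not, and both inhibitor comparisons share the vehicle libraries. Flt1 lies below 0 in all 3 comparisons, from -0.79 to -1.22, and Vegfd at 0.84 and Rnd3 at 0.65 lie highest with knockdown.

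The genes most like Plxnc1 and Sema3b across the 9 inhibitor libraries were taken as the 5 with the highest Pearson r of log2(normalized count + 1) among genes whose highest group averaged 50 or more normalized counts. For Plxnc1 these were Zfp125 (r = 0.97), Synj2 (0.97), Aldh4a1 (0.96), Selenop (0.96) and Ubxn8 (0.96). Selenop, a secreted selenium carrier, had means of 44.1, 104 and 90.8 normalized counts in vehicle, MS023 and GSK3368715. For Sema3b they were C1s1 (r = 0.99), Gm10499 (0.99), Tmco3 (0.99), Ist1 (0.98) and Samd10 (0.98). C1s1, a complement protease, had means of 1792, 3727 and 2655, the same order of groups as Sema3b. Plxnc1 and Sema3b themselves had r = 0.72. The 9 points share their treatment groups, so these values describe the pattern across groups as much as across libraries, and no test is given.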

How the data were processed

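CT26 RNA was sequenced by the authors as Kapa mRNA Hyper prep libraries on a NextSeq 500 (paired-end) and quantified with Salmon 1.4.0 on mm10, per the labels; the annotation, strand setting and DESeq2 version are not given in the sources used here. The deposited values are a normalized signal, gene counts divided by DESeq2 size factors; all values in each library were whole multiples of 1 constant (tolerance 0.05 reads), which returned whole reads for 100% of them. Deposited tables of the authors' own comparisons (fold changes, p-values) were not used.

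Genes that reached 10 normalized counts in 3 or more of the libraries fitted were compared on log2(normalized count + 1) with limma 3.58.1 (R 4.3.3, lmFit and eBayes with trend), two-sided, with Benjamini-Hochberg adjustment and a threshold of 0.05; this scale understates changes of scarce genes. The knockdown was fitted on 6 libraries, the inhibitors on 9 and the differences between effects on 15. edgeR 4.0.16 and DESeq2 1.42.0 on recovered reads, other pseudocounts, filters and scalings, a replicate block and left-out libraries were alternatives. Exon lengths and positions are from GENCODE M21 (mm10) and promoters from RefSeq; none of the 31 family transcripts had a copy of at least 95% identity over at least 30% of its length. Signalling lists and the 10 genes were chosen with earlier results of these data known. All members are named, other family genes where called, up to 3 listed genes per direction and contrast, and 5 genes most like Plxnc1 or Sema3b.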

Additional observations from a re-analysis of the deposited data

Results flagged for a closer look

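Effects of Prmt1 knockdown and of an inhibitor that differed in the 15-library fit are given here as log2 differences, knockdown effect minus inhibitor effect. Among the semaphorins, Sema3a differed from MS023 by 0.47 (SE 0.11, limma adjusted p = 0.0145), and Sema5a from MS023 by -0.47 (SE 0.13, adjusted p = 0.0454) and from GSK3368715 by -0.51 (SE 0.13, adjusted p = 0.047). Each Sema5a difference was lost in 14 of 25 alternatives, among them leaving out any shControl library, and that of Sema3a in 1 of 25, at an upper-quartile scaling.

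Among signalling genes, Dpysl3 differed from MS023 by 0.71 (SE 0.14, adjusted p = 0.0052). Rnd1 differed from MS023 by 0.66 (SE 0.10, adjusted p = 0.000784) and from GSK3368715 by 0.47 (SE 0.10, adjusted p = 0.0113). For Fyn the differences were 0.62 (SE 0.16, adjusted p = 0.0332) from MS023 and 0.62 (SE 0.16, adjusted p = 0.0471) from GSK3368715, lost in 11 and 16 of 25 alternatives. Farp1 differed from GSK3368715 by 0.27 (SE 0.07, adjusted p = 0.047), lost in 17 of 25, and Vegfb by -0.50 (SE 0.12, adjusted p = 0.0284), lost in 7 of 25. The signalling lists were drawn up with earlier results known, so these adjusted p-values are a description. No cause was tested for any of these differences. Groups of 3 libraries are too small for a test of single outlying libraries.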

How the results depend on the processing

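No called fold change or difference of a named gene reversed in any alternative, whereas 17 of the members' values without a call changed sign in 39 refits in all, among them Sema7a and Plxna1 with either inhibitor. Over 45 fold changes and differences of members, 922 of 930 refits moved by less than 1 SD between libraries, a measure that does not count lost calls. Plxna1 and Nrp1 with knockdown each stayed called in 9 of 16 alternatives, Sema3b with GSK3368715 in 11 of 20 and Plxna2 with MS023 in 18 of 20. Plxnc1 with either inhibitor and Sema3b with MS023 stayed called in 20 of 20. Since the members were chosen with these contrasts known, nothing is read from how often their calls were kept. Of the other named results, 141 of 693 refits lost their call, a different measure. The cause was not tested. A further limit of 1 on the size of the log2 fold change left 275 calls with knockdown, 365 with MS023, 114 with GSK3368715, 4 between the inhibitors, 139 for knockdown against MS023 and 108 against GSK3368715; it left 0 members and 0 family genes with knockdown, and 0, 1 and 0 pathway genes with knockdown, MS023 and GSK3368715.

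The difference between the inhibitors rested most on the method: 67 genes were called, against 38 with no filter, 8 with no trend, 4 with the replicate block and 377 by DESeq2, which called 1 member and 2 family genes. When only the compared groups were fitted, GSK3368715 gave 597 calls with 1 member, 1 family gene and 3 pathway genes, and the inhibitor difference called 1 member and 1 family gene. DESeq2 called 844 genes for knockdown against GSK3368715, and 11 and 8 pathway genes with knockdown and GSK3368715. With knockdown, members called were 1 with no filter, 1 with no trend and 0 at an upper-quartile scaling, and family genes 3 with no trend and 3 at that scaling, which left 3 pathway genes with GSK3368715. With no trend 1 member was called with GSK3368715.

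Rescaling shifted the balance of all calls: with knockdown 861 were higher and 823 lower, against 1082 and 666 at equal totals, and with MS023 1784 and 1841, against 2200 and 1509 at equal totals and 2085 and 1080 at equal upper quartiles. At equal upper quartiles the split also moved between the inhibitors (41 and 26 to 18 and 28), for knockdown against MS023 (485 and 390 to 243 and 490) and against GSK3368715 (283 and 188 to 172 and 178), and at equal totals between the inhibitors (22 and 25).

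Leaving out single libraries gave 652 to 2472 calls with knockdown, 2409 to 3726 with MS023, 586 to 1274 with GSK3368715, 2 to 114 between the inhibitors, 505 to 996 for knockdown against MS023 and 286 to 562 against GSK3368715. Members called ran from 0 to 3, 2 to 4 and 1 to 3 in the comparisons with control, and from 0 to 1 between the inhibitors and for knockdown against MS023. The main fits against control tested 6, 9 and 9 members and called 14.7%, 27.9% and 9.64% of all genes. Since the members were chosen with these contrasts known, nothing is read from their counts in any alternative. Family genes ran from 1 to 6, 5 to 6, 1 to 4 and, between the inhibitors, 0 to 1, and pathway genes from 2 to 14, 9 to 18 and 2 to 6.

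Replicate numbers are shared by the groups. Deviations of same-numbered libraries correlated at 0.061, 0.116 and 0.081 with knockdown, where every library correlated best with its own number. Among inhibitor groups these values lay between -0.102 and 0.113. Whether a number marks a shared batch was not tested, and the main fits treat the libraries as not paired. The replicate block gave 2671 calls with knockdown, against 1684 in the main fit, and 11 pathway genes. With GSK3368715 it gave 1 member, 1 family gene and 3 pathway genes. Depth limits Sema3c, Sema7a, Plxnb1 and Plxnc1 most, with 0, 31, 30 and 61 reads over the knockdown libraries.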
